A study of Mus musculus with 7 samples.

Results

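The genes described here encode subunits of Polycomb repressive complex 1 (PRC1): the chromobox genes Cbx2, Cbx6, Cbx7 and Cbx8, the catalytic genes Ring1 and Rnf2, the Polycomb group RING finger genes Pcgf1 and Pcgf6, and Rybp. Their RNA was followed in precipitates made with an EZH2 antibody from mouse embryonic stem (ES) cells. According to the series title this monoclonal, raised against human EZH2, cross-reacts with SAFB, which binds RNA in the nucleus. A feature, an interval of the deposited count table called on pooled wild-type precipitates, was taken as a member when it overlapped the annotated mm10 span (GENCODE M21) of a listed gene on its strand. This gave 94 of 303889 features. Of these, 33 touched an exon of the gene (exonic, of 103068 exonic features in the table) and 61 did not (intronic, of 128100). All 9 genes had features: Cbx7 had 5 exonic and 21 intronic ones, Rybp 3 and 22, Rnf2 6 and 15, Pcgf6 7 and 1, and Cbx6 4 and 2, while Ring1 had 3, Cbx2 and Cbx8 2 each and Pcgf1 1, all exonic.

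All cells derived from 1 male CAST/B6 Rosa26-RMCE line (an acceptor cassette at Rosa26), grown with 15% serum, and all received doxycycline for 3 days, without a statement in the labels of what it induced. The wild-type group (WT, n = 3) held the parental line and clones 20 and 44. The EZH2 knockout (EZH2 KO, n = 2) held clones 12 and 19, and cells without both Safb and Safb2, its paralog (SAFB DKO, n = 2), came as clones 13 and 4. Each library thus stood for a clone or the parental line, and p-values measure the spread between these. The precipitate measures RNA recovered with the antibody, so a level is neither the expression of a gene nor its binding to 1 protein. Fewer cells with an RNA and less of it per cell cannot be told apart in such bulk libraries. Since features were called on WT precipitates, RNA recovered only in a knockout may have no feature, and falls from WT are favoured. By how much was not tested.

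PRC1 ubiquitinates histone H2A and holds developmental genes in a repressed state. In its canonical form a CBX protein reads the histone mark written by PRC2, the complex of EZH2, while variant forms carry RYBP or YAF2 instead and can reach chromatin without that mark. RING1 and RNF2 (also called RING1A and RING1B) are the alternative catalytic subunits, and the PCGF subunit at their side sets which variant is formed. In ES cells CBX7 is known as the main chromobox protein of canonical PRC1, and CBX2 and CBX8 as ones that gain weight on differentiation.

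Ring1 and Rnf2 are shown first by sequence, since their exonic signal moved in different directions in SAFB DKO. The lines give, 5′ to 3′ on the minus strand of mm10, a coding exon of 161 bases in each gene, at chr17:34023293-34023453 for Ring1 and chr1:151476872-151477032 for Rnf2, with bases that differ between the genes in capitals.
Ring1: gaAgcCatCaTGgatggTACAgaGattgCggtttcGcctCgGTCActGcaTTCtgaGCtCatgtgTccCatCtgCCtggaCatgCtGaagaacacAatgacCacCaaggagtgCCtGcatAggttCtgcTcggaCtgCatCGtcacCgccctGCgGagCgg
Rnf2: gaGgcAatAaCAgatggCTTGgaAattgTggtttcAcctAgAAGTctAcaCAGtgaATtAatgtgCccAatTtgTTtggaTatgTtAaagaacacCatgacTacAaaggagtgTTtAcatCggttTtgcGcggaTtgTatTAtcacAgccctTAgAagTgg
Of the 161 bases, 50 differed (68.9% identity), and the longest stretch identical in both held 8 bases. The comparison covers this exon alone, while the largest part of the Ring1 change came from another feature, given below. Whether the genes share reads was not tested. The GC content was 56.5% in the Ring1 exon and 40.4% in the Rnf2 exon.

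The WT libraries held 19024702 to 21832539 counts, the EZH2 KO ones 7050832 to 8353603 and the SAFB DKO ones 15812517 to 18738499, the fewest in EZH2 KO. Levels below are CPM, the counts-per-library-size scale of edgeR, as mean ± SD over libraries. The naming of the EZH2 KO columns points to another sequencing run than that of the other libraries, which the labels do not state. If so, genotype and run cannot be told apart in any comparison with EZH2 KO. Ezh2 and Safb followed the labels: exonic Ezh2 stood at 114 ± 11.05 CPM in WT and 119 ± 15.8 in SAFB DKO but at 0.301 ± 0.425 in EZH2 KO. Exonic Safb stood at 200 ± 71.9 CPM in WT and 299 ± 21.2 in EZH2 KO but at 1.00 ± 0.581 in SAFB DKO. Of the 3 exonic sums of Ezh2, Safb and Safb2, 2 fell and 0 rose in SAFB DKO, and 1 fell and 1 rose in EZH2 KO. Of 10 ES cell markers 9 had exonic features, and their summed level was 1239 to 1287 CPM for WT, 836 to 921 for EZH2 KO and 1745 to 1790 for SAFB DKO. Of the 9, 7 rose and 1 fell in SAFB DKO, and 7 fell and 2 rose in EZH2 KO, the directions of the exonic calls of Rnf2, Pcgf6 and Rybp below, and their part in those results was not tested. Of 5 markers of fibroblasts (feeders) 3 had exonic features, which summed to 7.99 to 9.97 CPM for WT, 3.15 to 7.82 for EZH2 KO and 6.404 to 10.1 for SAFB DKO. Of 5 markers each, 1 neural, 2 endoderm and 4 mesoderm ones had exonic features. In the same order of groups, the neural one had 4.99 to 7.41, 0.786 to 1.20 and 3.19 to 6.30 CPM. Endoderm summed to 1.51 to 2.59, 1.26 to 3.91 and 0.646 to 1.09, and mesoderm to 17.1 to 20.3, 18.5 to 30.2 and 10.3 to 11.5.

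Between SAFB DKO and WT, the member features that changed were mostly introns of Cbx7. Of 31 exonic features tested 2 fell and 2 rose, where 7.26% of all 84475 tested exonic features fell and 4.81% rose. Of 59 intronic features tested 7 fell and 0 rose, where 19.7% of all 75974 tested intronic features fell and 0.171% rose. At an unadjusted p under 0.05 edgeR had 10 intronic features lower and 1 higher, and DESeq2 called 6 intronic features in all. All 7 intronic falls lay in Cbx7. The share of falls among all member introns, with these 7, was no higher than the background. The median log2 fold change was 0.45 over exonic member features and 0.27 over all exonic features, and it was -0.38 over intronic member features and -0.49 over all intronic ones. A fit of the WT and SAFB DKO libraries alone gave 3 falls and 7 rises among exonic and 10 falls and 2 rises among intronic features. The share over all features of the class was not computed for this fit or the fits below. Nor was it computed for the unadjusted and DESeq2 counts above, so none of these counts can be set against a background. The number of exonic calls was 2 without the WT parental line, WT clone 20 or SAFB DKO clone 4, 1 without SAFB DKO clone 13 and 10 without either EZH2 KO clone, and that of intronic calls was 3 without the WT parental line, 4 without SAFB DKO clone 13, and 12 and 11 without EZH2 KO clones 12 and 19.

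In EZH2 KO against WT, 3 of 31 exonic features fell and 1 rose, where 13.5% of all exonic features fell and 5.2% rose. Of 59 intronic features 0 fell and 3 rose, where 4.29% of all fell and 8.8% rose. The 3 that rose were a pair of intronic Cbx7 features and a Cbx6 feature. The Cbx6 one is intronic by the basic annotation only and is shared with Npcd. At an unadjusted p under 0.05 edgeR had 8 intronic features lower and 4 higher, and DESeq2 called 3 intronic features in all. The share over all intronic features was not computed at either setting. The median log2 fold change was -0.41 over exonic members and -0.55 over all exonic features, and -0.25 over intronic members and 0.01 over all intronic ones. These counts depended on single libraries, and no share over all features was computed for the fits without them. Exonic calls numbered 1 without the WT parental line or clone 20, 0 without WT clone 44, 2 without EZH2 KO clone 12 and 15 without clone 19, and intronic calls 12 without clone 19.

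**Figure D1:**
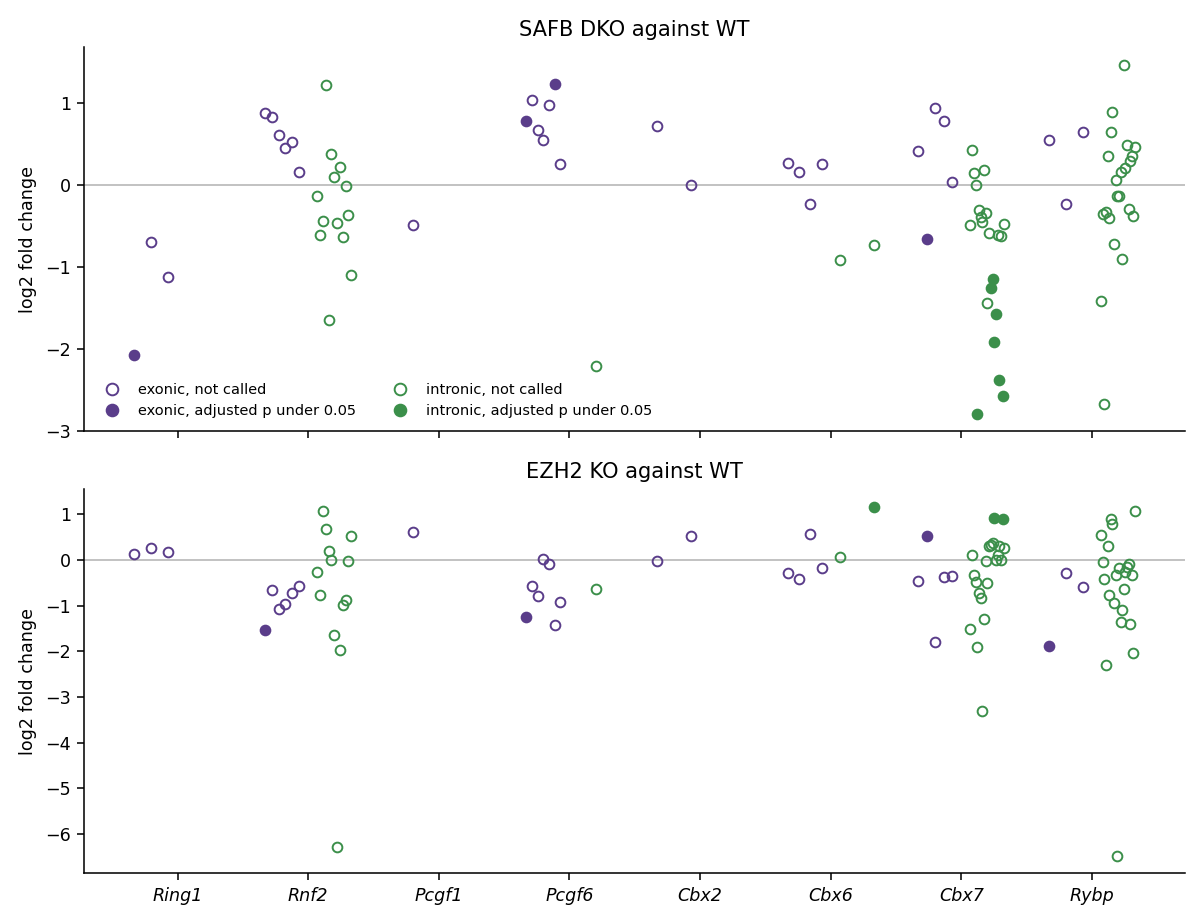
Log2 fold change of each tested member feature by gene, for SAFB DKO against WT and EZH2 KO against WT. Purple points are exonic and green points intronic features, and filled points have an adjusted p under 0.05. In SAFB DKO the filled green points all belong to Cbx7. The lowest points of the EZH2 KO panel are an Rnf2 and a Rybp feature with no count in either EZH2 KO library, whose fitted change is no bound.

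The counts of each gene were then summed over its exonic and over its intronic features, leaving out features shared with another gene. Of 7 exonic sums tested, 1 fell (Ring1) and 2 rose (Rnf2 and Pcgf6) in SAFB DKO, beside 21.8% and 20% of all 15231 exonic sums. Of 4 intronic sums, 1 fell (Cbx7) and 0 rose, beside 45% and 0.841% of all 9867. In EZH2 KO 3 exonic sums fell (Rnf2, Pcgf6 and Rybp) and 1 rose (Cbx2), beside 27.3% and 18.1% of all. Of the intronic sums 0 fell and 1 rose (Cbx7), beside 9.15% and 26.8%. Cbx6 had no such sum, since all 6 of its features also overlap Npcd, and Cbx8 did not pass the filter on low counts.

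**Figure D2:**
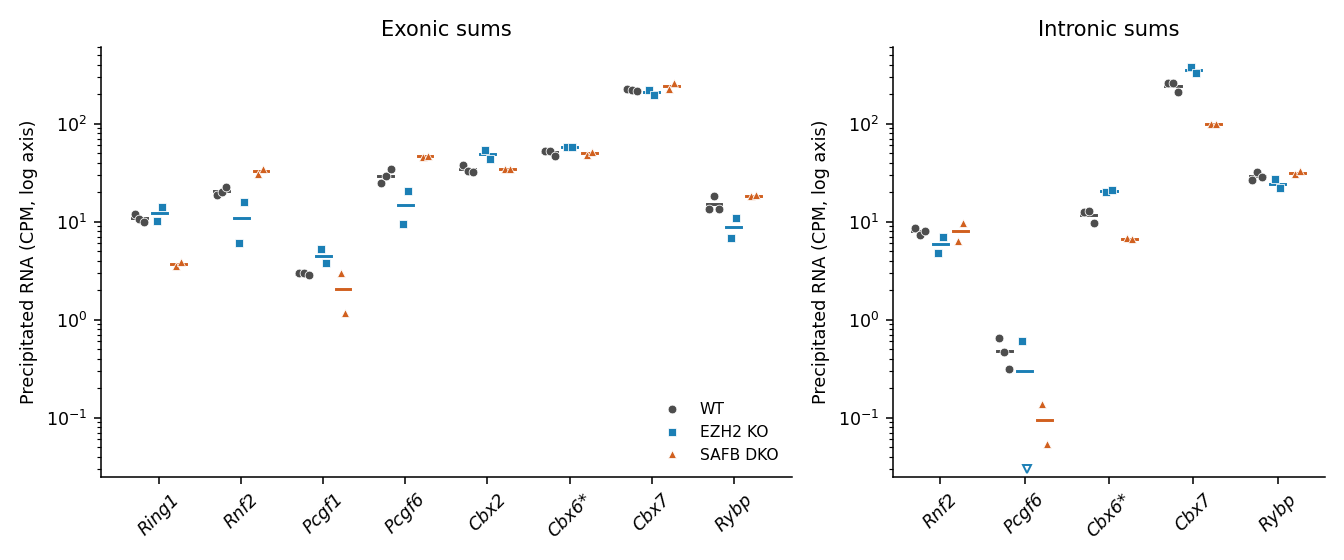
Exonic (left) and intronic (right) level of each gene in CPM on a log axis, with a point per library and a bar at each group mean. Cbx6, marked with an asterisk, is summed with features shared with Npcd, and the open triangle marks a library without counts. The SAFB DKO points lie below every WT point in exonic Ring1 and intronic Cbx7 and above every WT point in exonic Rnf2 and Pcgf6.

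Levels per kilobase used the whole length of each feature, and 12 of the 33 exonic features lie mostly outside exons. On this scale exonic Cbx7 had the highest level in WT, at 33.8 ± 0.862 CPM per kb. Exonic Cbx6 (11.1 ± 0.725) and Cbx2 (9.96 ± 0.910) followed, then Rnf2 (7.96 ± 0.743), Rybp (5.81 ± 1.11), Pcgf6 (5.45 ± 0.864), Ring1 (4.20 ± 0.368), Cbx8 (1.56 ± 0.889) and Pcgf1 (1.46 ± 0.0370). In this order the ranges of mean ± SD overlapped between the neighbours Cbx6 and Cbx2, Rybp and Pcgf6, and Cbx8 and Pcgf1. In SAFB DKO Rnf2, at 12.7 ± 1.21 CPM per kb, stood second, and Ring1, at 1.43 ± 0.0989, stood above Pcgf1 (1.02 ± 0.622) and Cbx8 (0.327 ± 0.119) only. Intronic levels per kb in WT were 15.8 ± 1.91 for Cbx7, 6.402 ± 0.919 for Cbx6, 5.41 ± 1.88 for Pcgf6, 2.56 ± 0.285 for Rybp and 2.29 ± 0.198 for Rnf2. The Pcgf6 value rests on 1 feature of 88 bases with 14, 10 and 6 counts in the WT libraries. Likewise, exonic Cbx8 rests on 222 bases with 21 counts over WT, so the ranks of both are uncertain. Cbx7 intronic signal per kb was 23.1 ± 2.34 in EZH2 KO and 6.45 ± 0.0461 in SAFB DKO.

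Among the chromobox readers, Cbx7 (chr15:79915807-79971119, minus strand, 55313 bp) had the most counts in both classes. Its intronic sum was 260, 261 and 210 CPM in the WT libraries, 382 and 330 in the EZH2 KO clones, and 99.0 and 100 in the SAFB DKO clones. The 3 groups did not overlap. The intronic sum fell in SAFB DKO against WT, with a log2 fold change of -1.29 (SE 0.14, adjusted p = 8.24e-06). In EZH2 KO it rose by 0.55 (SE 0.14, adjusted p = 0.0059). SAFB DKO was below EZH2 KO (-1.84, SE 0.15, adjusted p = 2.88e-07), a test of how far the knockouts differ from each other. The rise in EZH2 KO was 0.37 (adjusted p = 0.0508) without EZH2 KO clone 12 and 0.32 (adjusted p = 0.0824) with libraries scaled by column totals.

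The exonic Cbx7 sum was 225, 219 and 214 CPM in the WT libraries, 222 and 197 in the EZH2 KO clones, and 227 and 257 in the SAFB DKO clones. The ranges of WT and EZH2 KO overlapped, and the SAFB DKO libraries lay above WT. Its log2 fold change was 0.14 (SE 0.12, adjusted p = 0.377) in SAFB DKO and -0.06 (SE 0.13, adjusted p = 0.712) in EZH2 KO, past the threshold in neither. Within the exonic class the parts differed. The feature over the last exon, chr15:79915844-79918477, with 2633 of its 2634 bases exonic, had 141, 131 and 140 CPM in the WT libraries, 109 and 92.3 in the EZH2 KO clones, and 169 and 197 in the SAFB DKO clones. Its groups did not overlap, but neither difference from WT passed the test (log2 0.41, adjusted p = 0.0554, and -0.45, adjusted p = 0.0527), while SAFB DKO against EZH2 KO did (0.86, adjusted p = 0.00052). Those 2 near misses passed in fits without single libraries: the SAFB DKO difference without EZH2 KO clone 12 or 19 (both 0.40, adjusted p = 0.0174 and 0.0149), and the EZH2 KO one without clone 12 (-0.64, adjusted p = 0.0118) or SAFB DKO clone 13 or 4 (-0.50 and -0.51, adjusted p = 0.0302 and 0.0315). The SAFB DKO difference also passed under TMM factors of all features (0.50, adjusted p = 0.0177), column totals (0.64, adjusted p = 0.00449), DESeq2 (0.67, adjusted p = 0.00279), no low-count filter (0.46, adjusted p = 0.0314) and WT and SAFB DKO alone (0.40, adjusted p = 0.0129). The EZH2 KO one passed under the first 2 of these (-0.58 and -0.67, adjusted p = 0.014 and 0.00623) and without the filter (-0.54, adjusted p = 0.0171). The neighbouring feature chr15:79919810-79921403, with only 32 of 1594 bases in an exon, ran the other way, with 71.2, 76.0 and 62.4 CPM in the WT libraries, 105 and 96.1 in the EZH2 KO clones, and 43.3 and 44.6 in the SAFB DKO clones. It fell in SAFB DKO (-0.67, SE 0.16, adjusted p = 0.00757) and rose in EZH2 KO (0.53, SE 0.16, adjusted p = 0.036). The fall was -0.65 (adjusted p = 0.0571) without SAFB DKO clone 13, -0.44 (adjusted p = 0.0639) with column totals and -0.42 (adjusted p = 0.0997) with DESeq2. The rise was lost without any 1 WT library (0.56, 0.61 and 0.47 without the parental line, clone 20 and clone 44), without EZH2 KO clone 12 (0.40) and without SAFB DKO clone 13 or 4 (0.47 and 0.46), with adjusted p from 0.0584 to 0.154, and was 0.45 (adjusted p = 0.202) with the replicate number as a block. It was also lost under TMM factors of all features (0.40, adjusted p = 0.0906), column totals (0.30, adjusted p = 0.213) and no low-count filter (0.43, adjusted p = 0.0991). Where exonic was kept for features mostly inside exons, the exonic Cbx7 sum rose in SAFB DKO (0.42, adjusted p = 0.0193) and fell in EZH2 KO (-0.46, adjusted p = 0.0157). It also rose in SAFB DKO with column totals (0.37, adjusted p = 0.0298) and with DESeq2 size factors (0.42, adjusted p = 0.00522).

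The intronic change of Cbx7 was concentrated in a few intervals far upstream. The feature chr15:79960704-79962834, centred 9.3 kb from the annotated gene start, had 86.6, 93.5 and 67.0 CPM in the WT libraries, 160 and 145 in the EZH2 KO clones, and 12.4 and 15.2 in the SAFB DKO clones. The 3 groups did not overlap. It fell in SAFB DKO (log2 -2.58, SE 0.20, adjusted p = 8.18e-08) and rose in EZH2 KO (0.89, SE 0.17, adjusted p = 0.00272). At chr15:79948796-79950757, 21.3 kb from the start, the level was 35.2, 33.3 and 27.2 CPM in the WT libraries, 68.9 and 51.6 in the EZH2 KO clones, and 9.62 and 7.16 in the SAFB DKO clones. This feature also fell in SAFB DKO (-1.92, SE 0.23, adjusted p = 7.92e-06) and rose in EZH2 KO (0.92, SE 0.21, adjusted p = 0.0068), the rise being 0.63 (adjusted p = 0.0578) without EZH2 KO clone 12. At chr15:79955043-79956192, 15.5 kb from the start, the level was 31.8, 29.7 and 13.3 CPM in the WT libraries, 36.2 and 25.2 in the EZH2 KO clones, and 6.11 and 3.39 in the SAFB DKO clones. There the SAFB DKO libraries lay below all others, with a log2 change of -2.38 (SE 0.36, adjusted p = 0.000115), and the EZH2 KO libraries overlapped WT (0.30, adjusted p = 0.564). The other 4 intronic features that fell in SAFB DKO had larger adjusted p-values. Their log2 changes were -1.58 (adjusted p = 0.00579) at 19.9 kb, -1.15 (adjusted p = 0.0207) at 22.9 kb, -1.26 (adjusted p = 0.0116) at 23.8 kb and -2.80 (adjusted p = 0.0194) at 35.3 kb. Each of these 4 lost its call without the WT parental line (adjusted p = 0.0511, 0.134, 0.064 and 0.105). The first 3 lost it without SAFB DKO clone 13 too (0.0651, 0.162 and 0.0635 as adjusted p), the feature at 23.8 kb without SAFB DKO clone 4 (adjusted p = 0.069), and the feature at 35.3 kb without WT clone 20, WT clone 44 or SAFB DKO clone 4 (adjusted p = 0.094, 0.0871 and 0.142). The feature at 22.9 kb also lost it with column totals (-0.93, adjusted p = 0.0581) and DESeq2 (-0.90, adjusted p = 0.0726). In EZH2 KO these 4 changed by -0.01 (19.9 kb), 0.38 (22.9 kb), 0.34 (23.8 kb) and -1.91 (35.3 kb), none of them called with all libraries. The EZH2 KO change at 35.3 kb was -0.96 without clone 12 and -8.24 with clone 12 as the only EZH2 KO library. Between the knockouts that feature differed by -0.89, not called, and by -2.19 to 5.44 over the alternatives. Its fall thus cannot be assigned to SAFB DKO alone. Of all 21 intronic Cbx7 features, 11 had a log2 change below 0 in EZH2 KO (median -0.01), with 2 called higher and 0 lower.

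**Figure D3:**
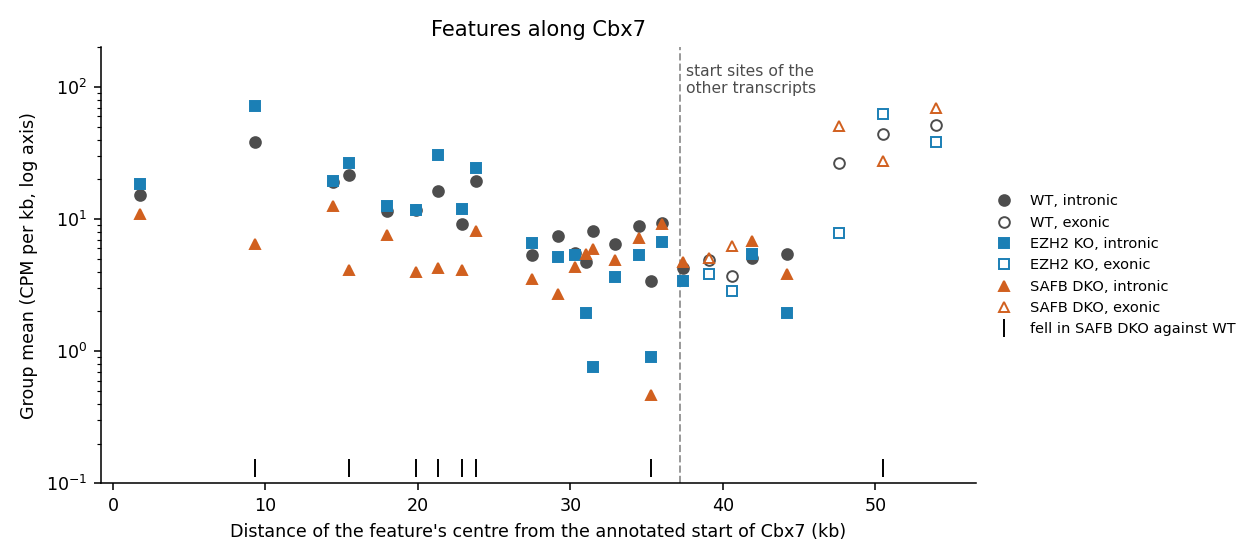
Mean CPM per kb of each Cbx7 feature in the 3 groups against the distance of the feature's centre from the annotated gene start in kb. Ticks mark the 8 features that fell in SAFB DKO, and the dashed line at 37.2 kb marks the most upstream start of the 7 shorter transcripts. The interval at 9.3 kb is highest in EZH2 KO and lowest in SAFB DKO.

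The annotation places these intervals in a long first intron. Of 9 Cbx7 transcripts in the full annotation, 2 start within 1 kb of the gene start, neither of them among the 3 transcripts of its basic set, and the other 7 start at or downstream of 37.2 kb (base 79933899). Of the 18 intronic features upstream of those 7 starts, 7 fell in SAFB DKO, where 19.7% of all tested intronic features fell. In EZH2 KO 2 of the 18 rose, where 8.8% of all did. Of 2 intronic features downstream, 0 fell in SAFB DKO or rose in EZH2 KO, too few for a comparison by position. The feature chr15:79919810-79921403, exonic by only 32 bases, also lies downstream and did both. The first feature of the gene, chr15:79967532-79971045, has 177 of its 3514 bases in the first exon of the long transcripts. It had 52.1, 55.0 and 54.6 CPM in the WT libraries, 67.3 and 62.0 in the EZH2 KO clones, and 40.4 and 37.1 in the SAFB DKO clones. Its groups did not overlap, and the log2 changes from WT, -0.48 (adjusted p = 0.0542) and 0.26 (adjusted p = 0.29), missed the threshold. The 4 intronic features with the most counts held 77.3% to 81.0% of intronic Cbx7 CPM in WT libraries, 86.0% to 87.2% in EZH2 KO and 62.8% to 69.1% in SAFB DKO.

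The RefSeq start of Cbx7 lies at base 79932646, 38.5 kb inside the GENCODE span. The 250 bases before it, chr15:79932647-79932896 on the minus strand (RefSeq, GRCm38.p6), are shown with each CG in capitals. They were chosen because all 7 intronic features that fell in SAFB DKO lie upstream of this start, as do most intronic Cbx7 features. The mostly intronic feature beside the last exon, classed as exonic, lies downstream and fell in SAFB DKO too.
Cbx7 promoter: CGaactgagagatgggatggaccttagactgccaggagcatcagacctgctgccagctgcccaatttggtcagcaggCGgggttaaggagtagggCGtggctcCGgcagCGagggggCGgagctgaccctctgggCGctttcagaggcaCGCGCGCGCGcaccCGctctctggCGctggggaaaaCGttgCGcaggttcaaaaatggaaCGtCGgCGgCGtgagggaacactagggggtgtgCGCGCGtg
The stretch holds 23 CG (a motif that reads the same on both strands). As many or more occurred in 13.3% of 32851 RefSeq promoters, whose median was 6 and of which 92.1% held at least 1. RefSeq promoters were found for 6 of the 9 members.

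The ratio of intronic to exonic counts of a gene does not depend on library scaling. For Cbx7 it was 1.16, 1.19 and 0.979 in the WT libraries, 1.71 and 1.68 in the EZH2 KO clones, and 0.435 and 0.389 in the SAFB DKO clones, again without overlap. The ratio fell in SAFB DKO (log2 -1.42, SE 0.13, limma adjusted p = 0.000239) and rose in EZH2 KO (0.62, SE 0.13, limma adjusted p = 0.0131; 0.53, adjusted p = 0.0618, with the replicate number as a block). SAFB DKO was lower than EZH2 KO (-2.04, SE 0.15, adjusted p = 2.71e-05). Of the 3 members with enough counts in both classes, Cbx7 was the one called in SAFB DKO, where the ratio fell in 36.1% and rose in 4.01% of all 7659 genes, and the one called in EZH2 KO, where it fell in 7.53% and rose in 24.7%. The median over all genes was -0.77 in SAFB DKO and 0.37 in EZH2 KO, so Cbx7 moved in the direction of the median, by more than it. For Rnf2 the log2 difference of the ratio from WT was -0.71 (SE 0.35, adjusted p = 0.149) in SAFB DKO and 0.59 (SE 0.35, adjusted p = 0.235) in EZH2 KO. Rnf2 passed in SAFB DKO without EZH2 KO clone 12 (adjusted p = 0.0439) or 19 (adjusted p = 0.0478), and in EZH2 KO without clone 19 (1.02, adjusted p = 0.0349). For Rybp it was -0.18 (SE 0.32, adjusted p = 0.68) and 0.53 (SE 0.32, adjusted p = 0.236), and without EZH2 KO clone 19 it was 1.04 (adjusted p = 0.0106) in EZH2 KO, whose clones stood at 3.97 and 1.98. Where exonic required most of a feature in exons, the Rybp ratio rose in EZH2 KO (1.97, adjusted p = 0.044).

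**Figure D4:**
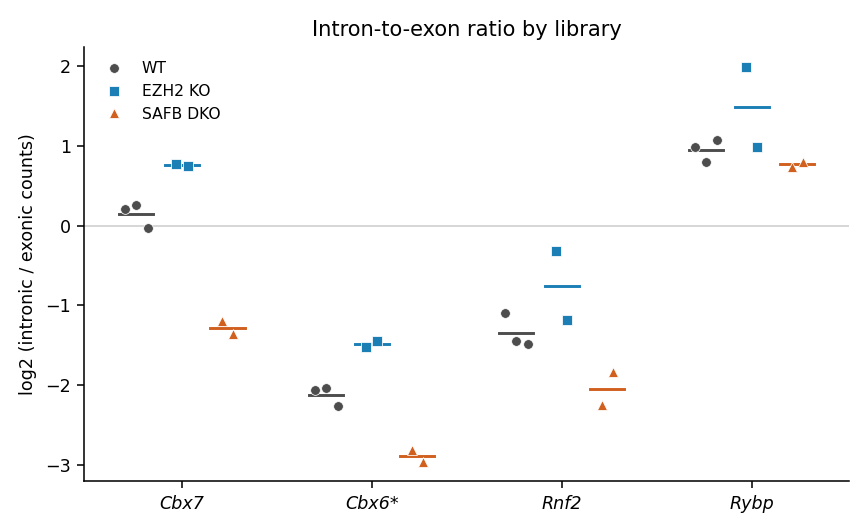
Log2 ratio of intronic to exonic counts in each library for Cbx7, Cbx6 (all features, marked with an asterisk), Rnf2 and Rybp. Points are libraries, coloured by group. For Cbx7 and Cbx6 the EZH2 KO libraries lie above WT and the SAFB DKO libraries below, and for Rybp the groups overlap.

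Cbx6 (chr15:79823896-79834688, minus strand) encodes a chromobox protein that is poorly characterised in ES cells. With the features it shares with Npcd, its intronic level was 12.6, 12.7 and 9.76 CPM in the WT libraries, 20.3 and 21.2 in the EZH2 KO clones, and 6.75 and 6.62 in the SAFB DKO clones. The groups did not overlap. This sum fell in SAFB DKO (log2 -0.81, SE 0.21, adjusted p = 0.00709), as did 45.4% of all 10557 intronic sums with shared features, and rose in EZH2 KO (0.83, SE 0.21, adjusted p = 0.00603), as did 27.8%. Its exonic level was 53.0, 52.4 and 47.0 CPM in the WT libraries, 58.3 and 57.9 in the EZH2 KO clones, and 47.9 and 51.7 in the SAFB DKO clones, with log2 changes of 0.19 (adjusted p = 0.292) in EZH2 KO and -0.03 (adjusted p = 0.884) in SAFB DKO. Its most counted exonic feature, chr15:79826736-79828894, had 27.6, 28.5 and 24.1 CPM in the WT libraries, 42.1 and 37.0 in the EZH2 KO clones, and 20.9 and 24.5 in the SAFB DKO clones. The EZH2 KO libraries were the highest there, but the change from WT was 0.56 (adjusted p = 0.0542), past the threshold without EZH2 KO clone 19 (0.59, adjusted p = 0.0438), with DESeq2 (0.58, adjusted p = 0.0486) and with a minimum mean of 10 counts (0.67, adjusted p = 0.0182). The intron-to-exon ratio, 0.239, 0.243 and 0.208 in WT, was 0.349 and 0.368 for the EZH2 KO clones but 0.141 and 0.128 for those of SAFB DKO. It fell in SAFB DKO (-0.77, SE 0.18, adjusted p = 0.0125), as in 36% of all 8218 genes, and rose in EZH2 KO (0.64, SE 0.18, adjusted p = 0.0315), as in 25.1%. Unlike those of the other genes, the Cbx6 sums and ratio were not refitted under any alternative or without single libraries. The intronic feature chr15:79831814-79832997 held most of the intronic sum in WT, with 6.99, 8.28 and 5.95 CPM in the WT libraries, 15.5 and 16.4 in the EZH2 KO clones, and 4.47 and 3.98 in the SAFB DKO clones. It rose in EZH2 KO (1.17, SE 0.26, adjusted p = 0.00587; 1.06, adjusted p = 0.055, with the replicate number as a block). In SAFB DKO its change was -0.74 (adjusted p = 0.0597), past the threshold without EZH2 KO clone 12 (adjusted p = 0.0206) or 19 (adjusted p = 0.0204). Both intronic Cbx6 features lie wholly inside exons of transcripts that only the full annotation holds, and reads of Cbx6 and Npcd cannot be told apart there.

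Cbx2 (chr11:119022962-119031270, plus strand) and Cbx8 (chr11:119036305-119040969, minus strand) are neighbours with exonic features only. Exonic Cbx2 was 37.9, 32.7 and 32.3 CPM in the WT libraries, 53.8 and 43.6 in the EZH2 KO clones, and 34.6 and 34.8 in the SAFB DKO clones. The EZH2 KO libraries lay above all others, and the SAFB DKO libraries lay within the WT range. Cbx2 rose in EZH2 KO (log2 0.51, SE 0.16, adjusted p = 0.0209) and differed from WT by 0.02 (adjusted p = 0.944) in SAFB DKO. The rise was lost without WT clone 20 (0.49, adjusted p = 0.0697), WT clone 44 (0.48, adjusted p = 0.0607), EZH2 KO clone 12 (0.28, adjusted p = 0.205) or SAFB DKO clone 4 (0.44, adjusted p = 0.0546), with the replicate number as a block (0.46, adjusted p = 0.0658), with no low-count filter (0.41, adjusted p = 0.0574), with TMM over all features (0.38, adjusted p = 0.0676) and with column totals (0.28, adjusted p = 0.194). Its most counted feature, chr11:119027899-119031225 and wholly exonic, had 37.0, 31.4 and 31.6 CPM in the WT libraries, 53.8 and 41.7 in the EZH2 KO clones, and 32.3 and 33.9 in the SAFB DKO clones. Taken alone it missed the threshold in EZH2 KO (0.52, adjusted p = 0.0685), and passed it without clone 19 (0.63, adjusted p = 0.0241) and with a minimum mean of 10 counts (0.63, adjusted p = 0.0242). Cbx8 had 21 counts over the WT libraries, 5 to 11 in each. It had 0 counts in EZH2 KO, which with 3 counts as the limit allows up to 0.195 CPM before TMM scaling, and 1 and 2 counts in the SAFB DKO libraries, so no comparison was tested. Limits of this kind cover counting error only.

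Of the catalytic pair, Ring1 (chr17:34020792-34024680, minus strand) fell in SAFB DKO and Rnf2 rose. Exonic Ring1 was 11.9, 10.7 and 10.02 CPM in the WT libraries, 10.2 and 14.2 in the EZH2 KO clones, and 3.51 and 3.87 in the SAFB DKO clones. The SAFB DKO libraries lay below all others, and EZH2 KO overlapped WT. Ring1 fell in SAFB DKO (log2 -1.56, SE 0.25, adjusted p = 0.000197) and differed from WT by 0.16 (SE 0.24, adjusted p = 0.614) in EZH2 KO. SAFB DKO was also lower than EZH2 KO (-1.72, SE 0.27, adjusted p = 0.000103). The largest part came from chr17:34019765-34021463, which has 672 of its 1699 bases inside the gene and the rest past its annotated 3′ end. That feature had 7.35, 6.59 and 5.85 CPM in the WT libraries, 6.31 and 8.18 in the EZH2 KO clones, and 1.60 and 1.51 in the SAFB DKO clones, and it fell (-2.08, SE 0.33, adjusted p = 0.000177). The feature with the printed coding exon, chr17:34023079-34023554, had 3.08, 3.20 and 2.87 CPM in the WT libraries, 3.16 and 3.77 in the EZH2 KO clones, and 1.28 and 1.51 in the SAFB DKO clones. It was lower in both SAFB DKO libraries than in every other one, but its change from WT missed the threshold (-1.13, SE 0.40, adjusted p = 0.0544). Over features mostly inside the gene span Ring1 still fell (-0.998, adjusted p = 0.0268).

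Exonic Rnf2 (chr1:151458004-151500955, minus strand) was 18.6, 20.1 and 22.4 CPM in the WT libraries, 6.01 and 15.9 in the EZH2 KO clones, and 30.4 and 34.8 in the SAFB DKO clones. The groups did not overlap, though the EZH2 KO clones were far apart. Rnf2 rose in SAFB DKO (log2 0.68, SE 0.26, adjusted p = 0.0472) and fell in EZH2 KO (-0.90, SE 0.30, adjusted p = 0.0273). SAFB DKO was higher than EZH2 KO by 1.58 (SE 0.32, adjusted p = 0.000677), or by 2.49 (adjusted p = 9.63e-07) without EZH2 KO clone 19. The rise in SAFB DKO was lost without WT parent, clone 20 or clone 44 (0.60, 0.66 and 0.72, adjusted p = 0.16, 0.128 and 0.0833), without SAFB DKO clone 13 or 4 (0.76 and 0.55, adjusted p = 0.1 and 0.244) and with a minimum mean of 10 counts (0.63, adjusted p = 0.0501). The fall in EZH2 KO was -0.42 (adjusted p = 0.134) without clone 12 and -1.82 (adjusted p = 9.06e-05) without clone 19, and was lost without WT clone 20 (-0.90, adjusted p = 0.0615) or 44 (-0.82, adjusted p = 0.0842). The most counted exonic feature, chr1:151470707-151471817, had 5.98, 7.34 and 7.62 CPM in the WT libraries, 1.95 and 6.92 in the EZH2 KO clones, and 11.9 and 12.9 in the SAFB DKO clones. The SAFB DKO libraries were the highest, with a log2 change of 0.82 (adjusted p = 0.0914) that passed without EZH2 KO clone 12 or 19 (both 0.81, adjusted p = 0.00477 and 0.00503), with column totals (1.05, adjusted p = 0.0131) and with DESeq2 (1.08, adjusted p = 0.0199). In EZH2 KO it differed by -0.66 (adjusted p = 0.255), or by -1.90 (adjusted p = 0.00201) without clone 19. A smaller feature wholly in an exon, chr1:151469829-151470166, had 2.85, 3.06 and 3.45 CPM in the WT libraries, 0.752 and 1.42 in the EZH2 KO clones, and 4.70 and 6.78 in the SAFB DKO clones. It fell in EZH2 KO (-1.52, SE 0.48, adjusted p = 0.041), a call lost without any 1 WT library (-1.57, -1.52 and -1.44, adjusted p = 0.0938, 0.102 and 0.12), without EZH2 KO clone 12 (-1.20, adjusted p = 0.141) and with the replicate block (-1.47, adjusted p = 0.164). Its SAFB DKO change was 0.88 (adjusted p = 0.0916), past the threshold without EZH2 KO clone 12 or 19 (adjusted p = 0.0217 and 0.0215), with column totals (1.10, adjusted p = 0.0238) and with DESeq2 (1.14, adjusted p = 0.0273). Intronic Rnf2 was 8.69, 7.39 and 7.99 CPM in the WT libraries, 4.81 and 6.92 in the EZH2 KO clones, and 6.34 and 9.69 in the SAFB DKO clones. The SAFB DKO libraries lay on either side of WT, and neither change passed the test (-0.00, adjusted p = 0.99, and -0.45, adjusted p = 0.236). Its most counted intronic feature, chr1:151493227-151493767, had 1.06, 1.36 and 1.25 CPM in the WT libraries, 0.301 and 0.314 in the EZH2 KO clones, and 1.55 and 1.29 in the SAFB DKO clones, and its change from WT passed in neither (0.22, adjusted p = 0.856, in SAFB DKO and -1.97, adjusted p = 0.0925, in EZH2 KO). The difference between Ring1 and Rnf2 itself was not tested.

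Pcgf6 (chr19:47033617-47050906, minus strand) encodes the PCGF subunit of a variant PRC1 with MGA and L3MBTL2 that represses germline genes in ES cells. Its exonic level was 24.9, 28.9 and 34.2 CPM in the WT libraries, 9.47 and 20.4 in the EZH2 KO clones, and 45.8 and 47.0 in the SAFB DKO clones. The groups did not overlap. Pcgf6 rose in SAFB DKO (log2 0.66, SE 0.23, adjusted p = 0.0325) and fell in EZH2 KO (-0.98, SE 0.26, adjusted p = 0.0097). Without the WT parental line, WT clone 20 or SAFB DKO clones 13 and 4 in turn, the rise was 0.54, 0.64, 0.67 and 0.61 with adjusted p of 0.142, 0.0982, 0.11 and 0.147. The fall was -0.59 (adjusted p = 0.0422) without EZH2 KO clone 12 and -1.69 (adjusted p = 0.000101) without clone 19. Of its features, chr19:47033743-47034696 at the 3′ end had 8.64, 10.2 and 15.0 CPM in the WT libraries, 5.11 and 4.40 in the EZH2 KO clones, and 16.7 and 21.8 in the SAFB DKO clones. It rose in SAFB DKO (0.77, SE 0.26, adjusted p = 0.0442) and fell in EZH2 KO (-1.24, SE 0.31, adjusted p = 0.0133), the rise being lost without the WT parental line, WT clone 20, or SAFB DKO clone 13 or 4 (0.60, 0.69, 0.95 and 0.54) and the fall without WT clone 44 (-0.97, adjusted p = 0.0735) or with the replicate block (-0.98, adjusted p = 0.0848). Near the gene start, chr19:47048797-47049134 had 1.20, 2.26 and 2.14 CPM in the WT libraries, 0.601 and 0.786 in the EZH2 KO clones, and 4.20 and 4.52 in the SAFB DKO clones, without overlap of the groups. It rose in SAFB DKO (1.22, SE 0.40, adjusted p = 0.0419), a call lost without any 1 WT library or either SAFB DKO clone (0.97 to 1.38, adjusted p from 0.102 to 0.229). In EZH2 KO its change was -1.42 (adjusted p = 0.104), or -1.67 (adjusted p = 0.0495) with column totals. The single intronic feature of Pcgf6 stayed at or below 0.643 CPM in every library. Pcgf1 (chr6:83077869-83080855, plus strand), the PCGF subunit of the variant complex with KDM2B and BCOR, had 2.99, 3.01 and 2.87 CPM in the WT libraries, 5.26 and 3.77 in the EZH2 KO clones, and 2.97 and 1.18 in the SAFB DKO clones. Its EZH2 KO libraries were the highest, and neither change from WT passed the test (0.61, adjusted p = 0.263, and -0.50, adjusted p = 0.356).

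Rybp (chr6:100228565-100287485, minus strand), the subunit that takes the place of a CBX protein in variant complexes, had the most intronic features. Exonic Rybp was 13.3, 18.4 and 13.6 CPM in the WT libraries, 6.77 and 11.01 in the EZH2 KO clones, and 18.2 and 18.7 in the SAFB DKO clones. The EZH2 KO libraries lay below WT, and SAFB DKO overlapped WT. Rybp fell in EZH2 KO (log2 -0.77, SE 0.26, adjusted p = 0.0285) and differed from WT by 0.29 (SE 0.22, adjusted p = 0.325) in SAFB DKO. The fall was -0.52 (adjusted p = 0.132) without EZH2 KO clone 12, -1.22 (adjusted p = 0.00344) without clone 19 and -0.59 (adjusted p = 0.123) without WT clone 20. Under DESeq2 size factors or plain column totals exonic Rybp also rose in SAFB DKO (0.56, adjusted p = 0.0348, and 0.51, adjusted p = 0.0441). Its exonic feature chr6:100230334-100230931 had 4.87, 5.93 and 6.26 CPM in the WT libraries, 0.451 and 2.67 in the EZH2 KO clones, and 8.03 and 8.50 in the SAFB DKO clones. That feature fell in EZH2 KO (-1.87, SE 0.48, adjusted p = 0.0152), a call lost without the WT parental line, clone 20 or clone 44, or without EZH2 KO clone 12 (-1.96, -1.83, -1.79 and -1.15, adjusted p = 0.0501, 0.0664, 0.0742 and 0.0642), and was -3.70 (adjusted p = 1e-04) without clone 19. Intronic Rybp was 26.4, 32.2 and 28.5 CPM in the WT libraries, 27.1 and 21.9 in the EZH2 KO clones, and 30.4 and 32.6 in the SAFB DKO clones. The groups overlapped, with log2 changes of 0.12 (SE 0.16, adjusted p = 0.6) in SAFB DKO and -0.25 (SE 0.18, adjusted p = 0.28) in EZH2 KO. The most counted intronic feature, chr6:100278256-100280371, had 5.29, 6.16 and 5.53 CPM in the WT libraries, 3.91 and 5.19 in the EZH2 KO clones, and 7.62 and 6.83 in the SAFB DKO clones. Its groups did not overlap, yet neither change from WT passed the test (0.35, adjusted p = 0.457, in SAFB DKO and -0.32, adjusted p = 0.527, in EZH2 KO). Cbx7, Rybp and Rnf2 all have many intronic features, and of their 3 intronic sums the Cbx7 one was called against WT. The difference between these genes was not tested.

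SAFB DKO against EZH2 KO shows where the knockouts differ from each other. Among exonic member features 12 were called higher and 4 lower in SAFB DKO, where 29.2% and 10.8% of all were. Among intronic ones 2 were called higher and 8 lower, where 7.81% and 26.5% of all were. The median was 0.86 over exonic and 0.11 over intronic members, and 0.85 and -0.43 over all features of the class. Of exonic sums 3 were higher (Rnf2, Pcgf6 and Rybp) and 2 lower (Ring1 and Cbx2), beside 37.1% and 28.8% of all. Of intronic sums 0 were higher and 1 was lower (Cbx7), beside 8.27% and 50.3%. Intronic Rybp (0.36, adjusted p = 0.11) was called higher under TMM over all features, column totals, DESeq2 and no low-count filter (0.58, 0.82, 0.65 and 0.50, adjusted p = 0.0156, 0.00229, 0.00529 and 0.0356). Exonic Cbx7 (0.21, adjusted p = 0.202) was too (0.43, 0.66, 0.49 and 0.35, adjusted p = 0.0127, 0.000966, 0.00194 and 0.0422). Intronic Rnf2 was called higher with column totals (0.93, adjusted p = 0.0132). The intron-to-exon ratio was lower in 2 of 3 genes, Cbx7 and Rnf2, beside 50.7% lower and 10.8% higher of all genes. For Rnf2 the change was -1.29 (SE 0.38, adjusted p = 0.021), or -0.86 (adjusted p = 0.0527) without EZH2 KO clone 12 and -1.09 (adjusted p = 0.105) without SAFB DKO clone 13. For Rybp it was -0.72 (adjusted p = 0.112), but -1.22 (adjusted p = 0.00354) without EZH2 KO clone 19 and -2.39 (adjusted p = 0.018) where exonic required most of a feature in exons. Pcgf6 differed by 1.64 (SE 0.28, adjusted p = 0.00019) and Rybp by 1.06 (SE 0.27, adjusted p = 0.00416) in exonic signal. Cbx2 differed by -0.49 (SE 0.17, adjusted p = 0.0251), a call lost without EZH2 KO clone 12 (-0.28, adjusted p = 0.198) or SAFB DKO clone 13 (-0.44, adjusted p = 0.121) or 4 (-0.46, adjusted p = 0.107). It was also lost under TMM over all features (-0.27, adjusted p = 0.181), column totals (-0.04, adjusted p = 0.857), DESeq2 (-0.21, adjusted p = 0.363) and no low-count filter (-0.35, adjusted p = 0.103). Leaving out EZH2 KO clone 19 gave 18 intronic calls. The 2 intronic features called higher were small. The Rnf2 one, chr1:151493227-151493767, differed by 2.18 (SE 0.81, adjusted p = 0.0405), a call lost without any 1 library (adjusted p from 0.0536 to 0.102). The Rybp one, chr6:100256684-100256825, which another gene shares, had 22, 12 and 8 counts in the WT libraries, 9 and 15 in those of SAFB DKO and 0 in both of EZH2 KO, so its fitted change is no bound. Its adjusted p was 0.0359, and the call was lost without WT clone 20 or 44, either EZH2 KO clone or SAFB DKO clone 4 (adjusted p from 0.0558 to 0.102). Among exonic features the short Cbx7 one at chr15:79923461-79923540 had 2.07, 2.54 and 1.83 CPM in the WT libraries, 0.150 and 1.10 in the EZH2 KO clones, and 5.02 and 3.18 in the SAFB DKO clones, and differed by 2.72 (SE 0.66, adjusted p = 0.0039), or 4.76 without EZH2 KO clone 19.

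Other PRC1 genes, a list of 26 with further PCGF, Polyhomeotic and variant-complex subunits, were read in the same fit. Of 25 exonic sums tested 4 fell and 8 rose in SAFB DKO (median log2 0.22, against 0.08 over all exonic sums), and 10 fell and 4 rose in EZH2 KO (-0.34, against -0.19). Of 23 intronic sums 13 fell and 0 rose in SAFB DKO (-0.50, against -0.92), and 2 fell and 7 rose in EZH2 KO (0.19, against 0.26). Phc2, a Polyhomeotic subunit of canonical PRC1, stood at 22.1 ± 5.85 CPM in introns for WT, 70.8 ± 4.21 for EZH2 KO and 2.61 ± 0.953 for SAFB DKO. It fell in SAFB DKO (-3.07, adjusted p = 1.57e-06) and rose in EZH2 KO (1.68, adjusted p = 0.000109). Intronic Pcgf5, a PCGF subunit of variant PRC1, stood at 70.1 ± 6.29 CPM for WT, 136 ± 38.3 for EZH2 KO and 9.35 ± 1.23 for SAFB DKO, with changes of -2.91 (adjusted p = 2.17e-07) and 0.96 (adjusted p = 0.000801). Both lie further down in SAFB DKO than the Cbx7 intronic sum, whose change was -1.29. Exonic Dcaf7, which encodes a WD-repeat adaptor found with PRC1 variants, rose in SAFB DKO (1.05, adjusted p = 2.39e-05) and fell in EZH2 KO (-1.04, adjusted p = 0.000144). Intronic Mga, from the gene of the DNA-binding partner of PCGF6, fell in EZH2 KO (-3.12, adjusted p = 9.88e-06).

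Cbx7 had the most counts of the members in either class, and the genes outside PRC1 most like it were taken from the whole table. By the Euclidean distance of centred log2 CPM over the 7 libraries, the intronic sums nearest to intronic Cbx7 among 5605 were those of Ano6 (0.271), Mprip (0.278) and Brd3 (0.291). The exonic sums nearest to exonic Cbx7 among 11278 were those of Tbcel (0.139), Prrc2b (0.147) and Rbm45 (0.149).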

How the data were processed

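RNA precipitated with an EZH2 antibody was measured in 7 libraries of mouse ES cells. Library kits depleted ribosomal RNA; the ERCC spike-in was not analysed here. The deposited values are raw counts per feature, made by the authors on mm10 intervals with featureCounts 2.0.3 set to reverse strand (setting 2), per the file headers. Subread and mm10 also stand in the submitters' processing notes; which aligner and which caller were used is not given in the sources used here. Feature names state that the intervals were called on pooled WT libraries. The table also has 3 columns for a control antibody, which match no sample and were not used. Both SAFB DKO labels carry the same replicate number, so these libraries were numbered in label order. Of the members, 10 features were shared with another gene and 1, an intronic Rnf2 feature, stood in the authors' filtered list of 33671 peaks.

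Features were classed with GENCODE M21 (basic set): exonic with at least 1 base in an exon of the gene, intronic with none. The quasi-likelihood test of edgeR 4.0.16 (R 4.3.3) was run on the 192964 features kept by filterByExpr, with the 7 libraries fitted together by group, and again on exonic and intronic sums of every gene over features of 1 gene. Of the 94 member features 90 were tested (31 exonic, 59 intronic). Scaling used column totals times TMM factors of the tested features outside the filtered list. Intron-to-exon ratios were tested with limma 3.58.1 on log2((intronic + 0.5)/(exonic + 0.5)) where both sums averaged at least 10 counts, for 7659 genes. P-values were adjusted by Benjamini-Hochberg over the whole table, and an adjusted p under 0.05 counted as a change. Libraries of a group were compared before use: log2 features correlated at 0.909 to 0.915 within WT, 0.752 within EZH2 KO and 0.865 within SAFB DKO, and none was a copy of another. Total counts ran from 7050832 to 21832539, and library pairs of a group differed by more than counting error (chi-square per feature 2.80 to 3.82 between WT libraries, 6.54 between EZH2 KO clones, 5.77 between SAFB DKO clones). The scripts were tested on simulated data. Alternatives were DESeq2 1.42.0, other scaling, filters and exonic rules, a replicate block and leaving out each library. All 9 members were named; of their features the text names, per gene and class, the one with most counts, and called features with the largest changes. Members and lists were chosen with earlier results of these data known. The Cbx6 sums with shared features, the exonic rule by the full annotation, the WT and SAFB DKO fit and the view of Cbx7 by position were added after the data were seen.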

Additional observations from a re-analysis of the deposited data

How the results depend on the processing

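Most of the values compared kept their direction and their side of the threshold. Over named features, sums and ratios, 1604 values under an alternative were unchanged in direction and call, 40 uncalled ones changed sign, 79 gained and 99 lost a call. The 1604 include feature values under rules that only select or reclass features. Those values come from the same fit and could not change. Uncalled values that stayed uncalled are counted too, so the tally does not measure robustness. One uncalled value turned into a call of the opposite sign: intronic Pcgf6 in SAFB DKO against EZH2 KO, -1.57 with the rule used, was 1.25 (adjusted p = 0.00714) where exonic required most of a feature to lie in exons. The falls in SAFB DKO of intronic Cbx7 (-1.70 to -1.02), exonic Ring1 (-1.66 to -0.998) and the Cbx7 ratio (-1.73 to -1.34) held in every alternative run for them.

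Scaling moved the whole table. In SAFB DKO against WT 33578 features fell and 4354 rose (median -0.17), against 32050 and 6288 (-0.09) for TMM factors of all features, 30620 and 10871 (0.05) for plain column totals and 30346 and 9820 (0.08) for DESeq2, the order also used next. In EZH2 KO against WT 15579 fell and 14479 rose (-0.21), against 20299 and 12189 (-0.34), 26842 and 10924 (-0.46), and 15439 and 15239 (-0.20). In SAFB DKO against EZH2 KO 44954 fell and 32105 rose (0.08), against 41882 and 40004 (0.30), 38920 and 50520 (0.55), and 42202 and 38593 (0.32).

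Of member counts, column totals gave 7 exonic calls in SAFB DKO, 11 exonic calls in EZH2 KO and 3 called sums in EZH2 KO (4, 4 and 5 with the scaling used), and DESeq2 gave 7 exonic calls in SAFB DKO. With most of a feature required in exons there were 2 exonic calls in SAFB DKO and 2 called ratios in EZH2 KO. With shared features 2 ratios were called in SAFB DKO and 2 in EZH2 KO, the second being Cbx6. WT and SAFB DKO alone in the fit gave 10 exonic calls, 12 intronic calls and 2 called ratios. Except for the ratios with shared features, no share over all features, sums or genes of the same class was computed beside these counts. Without each library in turn, calls against WT ranged in SAFB DKO from 1 to 10 (exonic), 3 to 12 (intronic), 2 to 4 (sums) and 1 to 2 (ratios), and in EZH2 KO from 0 to 15, 3 to 12, 1 to 5 and 1 to 3. Between the knockouts they ranged from 12 to 22, 8 to 18, 5 to 7 and 1 to 3. Where leaving out a library left 1 in a group, it was assumed to vary like the others. The cause of these shifts was not tested.

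WT and EZH2 KO share replicate numbers 1 and 2, but the libraries come from separate clones, and same-numbered libraries deviated together with correlations of only 0.032 and 0.004. With a replicate block 1 exonic feature and 0 ratios were called in EZH2 KO, where 4 and 1 were without it. The EZH2 KO libraries had the fewest counts and the widest spread, and Cbx8 had too few counts to be tested.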
